A study of Homo sapiens with 35 samples.

Results

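The ETS family of transcription factors was followed across a study of TWEAK-treated glioma cells through 10 of its genes: *ETS1*, *ETS2*, *ETV4*, *ETV5*, *ELK1*, *ELK3*, *ELK4*, *ELF1*, *GABPA* and *ERF*. The members were the rows of the RNA-seq count table whose gene IDs map to these symbols, 10 of 62696 rows, and all 10 were among the 16879 genes that passed the filter on low counts. Around each gene, the p52, ETS1 and RNA polymerase II (RNA Pol II) chromatin immunoprecipitation peaks were collected within the gene and within 15 kb of any of its annotated start sites. The question put to the data was whether other members of the family change when ETS1 is reduced. The cells were U-87 MG, an established glioblastoma line. The RNA-seq held 4 groups of 3 libraries: untreated control cells, control cells given TWEAK (10 ng/ml for 48 h), and cells with CRISPR knockdown (KD) of *ETS1* or of *NFKB2*, both given the same TWEAK treatment. TWEAK, a cytokine related to TNF, signals to NF-κB by the non-canonical route, and p52 is the processed form of the *NFKB2* protein. There was no untreated KD group, so the effect of each KD was measured only in the presence of TWEAK. The ChIP-seq groups held 2 libraries each: p52 in control cells without and with TWEAK and in *ETS1* KD cells given TWEAK, made with guide 1 or guide 2; ETS1 in control cells without and with TWEAK; and RNA Pol II in the same 4 conditions as the RNA-seq. The labels of the RNA-seq and RNA Pol II libraries do not name the guide behind each KD.

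ETS factors share a DNA-binding domain, the ETS domain, that recognises a GGAA core, and the bases beside the core and the partner proteins set which genes a given factor controls. ETS1 and ETS2 are close relatives that ERK phosphorylates, and ETS1 is known for driving invasion and matrix protease genes in tumours. ETV4 and ETV5 belong to the PEA3 group of growth-factor-responsive activators. ELK1, ELK3 and ELK4 are the ternary complex factors that act with SRF, ELF1 is best known from lymphoid cells, GABPA binds DNA together with GABPB at housekeeping promoters, and ERF is a repressor held in check by ERK.

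Sequencing gave 28384201 to 40192606 counts per RNA-seq library. The targeted genes moved as labelled. *NFKB2* was at 235, 289 and 346 CPM (counts scaled to a common library size) in TWEAK-treated control libraries and at 75.6, 92.6 and 105 CPM in *NFKB2* KD libraries (log2 change −1.67, SE 0.176, edgeR adjusted p = 0.00339). The U-87 MG markers *VIM*, *CD44*, *FN1*, *NES* and *TNFRSF12A* were present in every library, while *MTAP*, *CDKN2A* and *CDKN2B*, which this line lacks, had 0 counts in all 12. Leukocyte *PTPRC* and *CD3E* had at most 3 counts in a library, endothelial *CDH5* and epithelial *CDH1* at most 4, and epithelial *KRT5* 0. The other endothelial markers were present at low counts in every library, *PECAM1* at 23 to 58, *VWF* at 31 to 125, *KDR* at 41 to 104 and *TEK* at 74 to 107, as were the other epithelial markers, *EPCAM* at 26 to 61 and *CLDN4* at 12 to 40. *ITGAM*, a leukocyte marker, went from 0 or 1 counts in untreated libraries to 22 to 63 counts in all 9 TWEAK-treated ones, and *CD14* had 2 to 15 counts; their part in the TWEAK results was not tested. Libraries differed in the level of GC-rich against GC-poor genes. The mean log2 level of the 10% of genes richest in GC minus that of the 10% poorest in GC, each against the mean of all libraries, was 0.65 in untreated replicate 3 and 0.69 in *NFKB2* KD replicate 2, and lay between −0.40 and 0.19 in the other 10. Because this trend differs within groups, each result below that it changes is also given after a correction for GC content and length.

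Sequences at 3 genes are shown first, because these were the only members with a p52 peak in both TWEAK-treated replicates. Each line gives the 121 bases centred on the p52 summit, on the strand of the ETS gene (hg38, minus strand in all 3): chr11:128580028-128580148 in an intron of *ETS1*, chr17:43578894-43579014 in an intron of *ETV4*, and chr13:41061681-41061801 just upstream of the furthest *ELF1* start. None of the 3 windows touches an annotated exon. Capitals mark the NF-κB consensus in *ETV4* and, in the other 2 windows, which hold no match to it, the run nearest the summit that has GG at its start and CC at its end with 6 bases between, a looser pattern chosen after the sequences were seen.
ETS1 p52 site: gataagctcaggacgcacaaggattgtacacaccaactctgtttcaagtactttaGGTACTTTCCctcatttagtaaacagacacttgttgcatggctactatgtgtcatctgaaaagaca
ETV4 p52 site: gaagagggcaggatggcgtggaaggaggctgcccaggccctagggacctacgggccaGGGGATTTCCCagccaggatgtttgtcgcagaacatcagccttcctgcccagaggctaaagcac
ELF1 p52 site: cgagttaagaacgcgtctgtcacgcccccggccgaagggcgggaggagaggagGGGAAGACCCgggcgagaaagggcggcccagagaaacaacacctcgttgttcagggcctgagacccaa

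The capitals in *ETV4* hold 2 overlapping matches to the NF-κB consensus, GGGGATTTCC and GGGATTTCCC, centred 2 and 3 bases from the summit. Searched on both strands, the consensus was in 69.5% of the 2941 p52 sites seen in both TWEAK-treated replicates, taken at the same length, and the looser pattern, which every consensus match also fits, in 94% of them. The ETS sequence CCGGAAG was in none of the 3 windows and in 1.29% of all p52 sites, while the bare core GGAA, which CCGGAAG contains, was in all 3 and in 94.8% of all sites. A match is a string of letters and not evidence of binding.

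Promoter sequence of RefSeq (GRCh38.p14) was matched for 7 of the 10 members, *ETS2*, *ELK1*, *ELK3*, *ELK4*, *ELF1*, *GABPA* and *ERF*; *ETS1*, *ETV4* and *ETV5* were not matched. *ETS2*, *ELK3*, *ELF1* and *ERF* had more than 1 promoter searched. CCGGAAG occurred within the 250 bases upstream of *ELK4* and *GABPA* and at no other member promoter, against 8.52% of 35116 promoters of that length. The NF-κB consensus occurred upstream of 1 of the 3 *ERF* starts and at no other member promoter, against 5.21%. Matches at so few promoters do not set the members apart from other genes. The stretches below lie upstream of *ETS2*, which rose with TWEAK, and *ELK4*, both of which carried RNA Pol II at the start. They are chr21:38805679-38805894 on the plus strand and chr1:205632012-205632261 on the minus strand, the first of them ending where an annotated exon begins. Capitals mark GGAA or its reverse complement TTCC in *ETS2*, where CCGGAAG is absent, and CCGGAAG in *ELK4*. The bare core was in 92.7% of the 35116 promoters, with a median of 3 matches in 250 bases, against 6 in the 216 bases of *ETS2*. These marks are not evidence of binding.
ETS2 promoter: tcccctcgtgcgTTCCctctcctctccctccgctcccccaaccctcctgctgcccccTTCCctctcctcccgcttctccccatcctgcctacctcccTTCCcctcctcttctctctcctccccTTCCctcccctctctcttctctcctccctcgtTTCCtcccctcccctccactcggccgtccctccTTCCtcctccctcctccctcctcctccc
ELK4 promoter: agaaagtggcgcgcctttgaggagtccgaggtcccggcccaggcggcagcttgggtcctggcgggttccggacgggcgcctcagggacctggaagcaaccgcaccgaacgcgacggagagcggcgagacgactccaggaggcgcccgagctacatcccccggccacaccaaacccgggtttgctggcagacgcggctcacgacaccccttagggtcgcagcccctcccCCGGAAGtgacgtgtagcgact

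All 10 genes were expressed in U-87 MG. Per kilobase of exon, the level averaged over the 12 libraries was highest for *ERF* (26.3 FPKM, which is CPM per kilobase), followed by *ELK1* (18.4), *ELK3* (17.0) and *ETV5* (14.4). *ETS2* (7.52), *ETS1* (7.47), *ETV4* (6.78), *ELF1* (6.66) and *GABPA* (5.89) lay close together, and *ELK4* was lowest (3.94 FPKM). In untreated cells *ETS1* stood at 5.99 ± 0.28 FPKM and *ETS2* at 5.26 ± 0.46 FPKM (SD, n = 3), and with TWEAK at 10.8 ± 1.22 and 9.31 ± 0.78 FPKM. By its mean *ETS1* ranked below *ERF*, *ELK1*, *ELK3*, *ETV5*, *ELF1* and *GABPA* in untreated cells, with *ETS1* and *GABPA* (6.13 ± 2.16 FPKM) within their spread, and below only *ERF*, *ELK1*, *ELK3* and *ETV5* after TWEAK. Both ranks use annotated exon length, so isoform choice enters them.

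**Figure D1:**
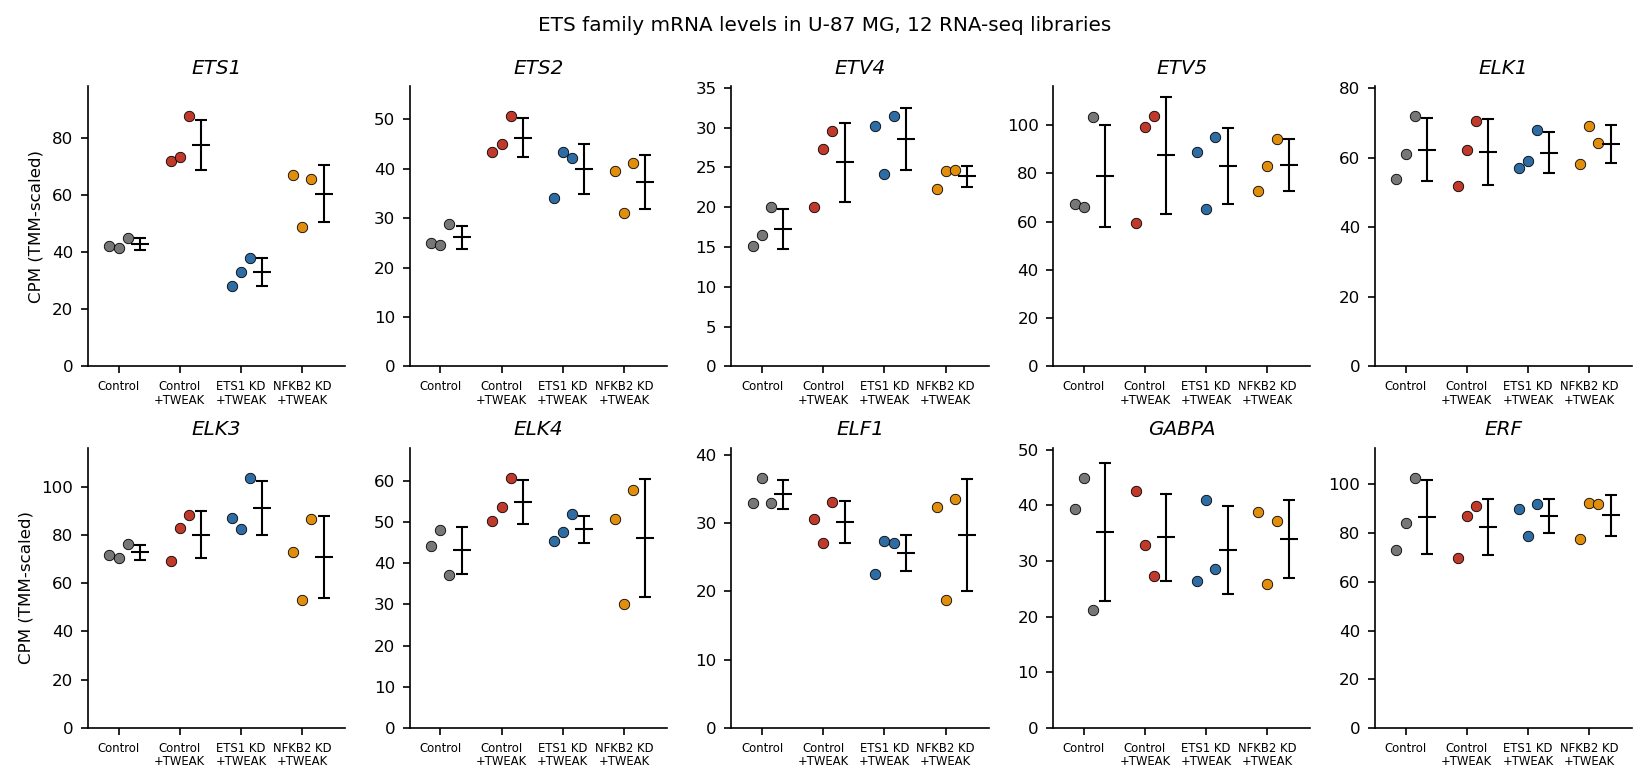
Level of each ETS family mRNA in the 12 RNA-seq libraries, in TMM-scaled CPM on axes that start at 0. Points are libraries by group (3 each), and the bar beside them is the mean with its SD. The *ETS1* points of the ETS1 KD group (28.2 to 37.8 CPM) sit below every other *ETS1* point, while the points of the other 9 genes in that group overlap those of TWEAK-treated control cells.

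TWEAK raised 2 of the 10 members, *ETS1* and *ETS2*, the founding pair of the family. The edgeR test called 3.08% of all genes in this comparison, and 1.55% of all genes as higher. *ETS1* was at 42.0, 41.3 and 45.1 CPM in the untreated libraries and at 71.9, 73.1 and 87.6 CPM with TWEAK. The groups did not overlap, as in 22.5% of all genes tested, and *ETS1* rose 1.81-fold (log2 change 0.86, SE 0.148, adjusted p = 0.0076). *ETS2* was at 25.0, 24.6 and 28.8 CPM without TWEAK and at 43.3, 45.0 and 50.7 CPM with it. These groups were also separate, and *ETS2* rose 1.77-fold (log2 change 0.82, SE 0.140, adjusted p = 0.00698). Both calls held when any single library of the comparison was left out, with log2 changes of 0.76 to 0.91 for *ETS1* and 0.75 to 0.90 for *ETS2*. Over the members the median log2 change was 0.14, beside 0.02 over all genes tested. Fewer cells expressing a gene and less RNA per cell cannot be told apart in bulk RNA.

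The PEA3-group gene *ETV4* missed the threshold. It was at 15.2, 16.5 and 20.001 CPM in untreated cells and at 20.018, 27.3 and 29.6 CPM with TWEAK, so that the highest untreated library and the lowest treated library nearly met. Its log2 change was 0.57 (SE 0.164), with an adjusted p of 0.087 against a threshold of 0.05. The treated library closest to the untreated ones, replicate 1, had the lowest GC trend of all 12 (−0.40), and *ETV4* is among the GC-rich members (60.1% of exon bases). After correction for GC content and length the adjusted p was 0.0126 with a log2 change of 0.58, in a fit that called 6.06% of all genes, and without replicate 1 of the TWEAK group it was 0.0319 with a log2 change of 0.72. Replicate 1 was the lowest treated library for *ETV4*, so leaving it out raises the change by construction. Any part of the GC trend in the *ETV4* result was not tested. Its relative *ETV5* had 67.3, 66.0 and 103 CPM without TWEAK and 59.5, 99.0 and 104 CPM with TWEAK, 2 widely spread and overlapping groups (log2 change 0.15, SE 0.231, adjusted p = 0.852). *ETV4* overlaps *DHX8* on the other strand and *ETV5* overlaps *DGKG* and *ETV5-AS1*; *ETV5-AS1* had 0 counts in every library.

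Among the ternary complex factors, no change passed the test. *ELK4* was at 44.2, 48.1 and 37.0 CPM in untreated cells and at 50.1, 53.6 and 60.8 CPM with TWEAK. The treated libraries were all above the untreated ones, but the log2 change of 0.35 (SE 0.197) had an adjusted p of 0.483. *ELK3*, which can act as a repressor, lay within 70.4 to 76.4 CPM untreated and within 69.3 to 88.1 CPM treated (log2 change 0.14, SE 0.165, adjusted p = 0.798). *ELK1* was within 53.9 to 72.1 CPM untreated and within 52.1 to 70.8 CPM treated.

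The remaining members, *ELF1*, *GABPA* and the repressor *ERF*, did not pass the test either, with log2 changes from −0.18 (*ELF1*, SE 0.187, adjusted p = 0.758) to −0.04. The levels of several members varied with the GC trend of the libraries. Across the 12 libraries the Pearson r between this trend and the log2 level was −0.91 for *GABPA* (38.4% GC) and 0.84 for *ERF* (63.9% GC), against −0.08 for *ETS1* and −0.15 for *ETS2*, as a description over libraries of 1 study. It was 0.76 for *ELK1*, 0.70 for *ETV5*, −0.61 for *ELK4*, −0.52 for *ELF1*, 0.35 for *ETV4* and −0.20 for *ELK3*. Within groups it was 0.75 for *ETV4*. *GABPA* stood at 21.3 CPM in untreated replicate 3 and 25.9 CPM in *NFKB2* KD replicate 2, the libraries with the strongest trend, and between 26.3 and 45.0 CPM elsewhere.

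**Figure D2:**
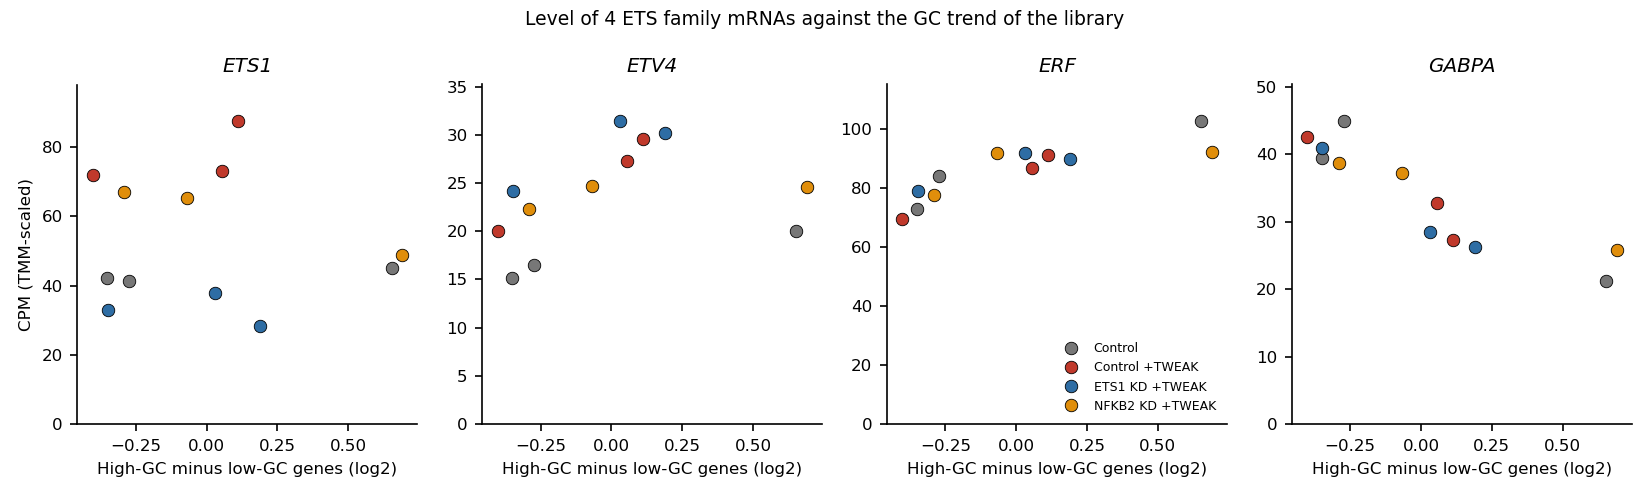
Level of 4 members in CPM (y axis, from 0) against the GC trend of each of the 12 libraries (x axis, log2 difference between the 10% of genes richest and poorest in GC), coloured by group. *ERF* rises and *GABPA* falls along the trend (r of 0.84 and −0.91), while *ETS1* has an r of −0.08 and *ETV4* one of 0.35.

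The comparison that bears on the family's response set the *ETS1* KD against TWEAK-treated control cells. In the KD libraries *ETS1* was at 28.2, 33.0 and 37.8 CPM, against 71.9, 73.1 and 87.6 CPM in the control. The groups were far apart, and *ETS1* fell by 1.23 on the log2 scale (SE 0.149, adjusted p = 0.00112), to 0.425 of the control level. Against untreated cells the KD libraries had a log2 difference in *ETS1* of −0.38 (SE 0.148, adjusted p = 0.117). RNA counts do not report protein, and reads from edited transcripts are counted as well. The only member called of 10 was *ETS1*, the gene targeted by the KD, so its call reports the KD itself and not a response of the family. In this comparison edgeR called 1.39% of all genes, and 1.13% of all genes as lower. Ranges did not overlap in 20.3% of all genes.

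No other family member changed past the threshold when *ETS1* was reduced. *ETS2*, the closest relative, was at 34.2, 43.4 and 42.2 CPM in the KD against 43.3, 45.0 and 50.7 CPM in TWEAK-treated control cells; the groups overlapped in a narrow range, with a log2 change of −0.21 (SE 0.139, 95% interval −0.51 to 0.09, adjusted p = 0.644). *ETV4* was at 30.2, 24.2 and 31.5 CPM against 20.018, 27.3 and 29.6 CPM (log2 change 0.16, interval −0.19 to 0.51, adjusted p = 0.833). *ELK3* was at 87.2, 82.5 and 104 CPM against 69.3, 83.1 and 88.1 CPM (log2 change 0.19, interval −0.17 to 0.54, adjusted p = 0.791). *ELF1* had the lowest estimate after *ETS1*, with 22.6, 27.3 and 27.0 CPM against 30.5, 27.0 and 33.1 CPM, and again the groups overlapped (log2 change −0.24, interval −0.64 to 0.17, adjusted p = 0.743).

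The other 5 members had estimates between −0.18 and 0.07. The estimate was −0.18 for *ELK4* (interval −0.61 to 0.24), −0.07 for *ETV5* (−0.58 to 0.43), −0.10 for *GABPA* (−0.69 to 0.49), 0.07 for *ERF* (−0.24 to 0.39) and −0.01 for *ELK1* (−0.32 to 0.30), all on the log2 scale. The adjusted p-values of the 9 members besides *ETS1* were between 0.644 and 0.995. These intervals are wide enough to hold changes of up to 0.69 downwards and 0.54 upwards, so small shifts were not detectable with 3 libraries a group. In a separate comparison with the untreated control cells, the ETS1 KD cells with TWEAK had higher *ETV4* (log2 change 0.73, SE 0.164, adjusted p = 0.0106) and *ETS2* (0.61, SE 0.140, adjusted p = 0.0119). These were the 2 members called there, where 13.8% of all genes were called and 6.22% as higher. After GC and length correction, in a fit that called 21% of all genes, *ETS1* (−0.37, adjusted p = 0.0316) and *ELF1* (−0.43, adjusted p = 0.0498) were also called, both as lower than untreated. That comparison joins the TWEAK treatment and the KD and shares its libraries with the others.

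**Figure D3:**
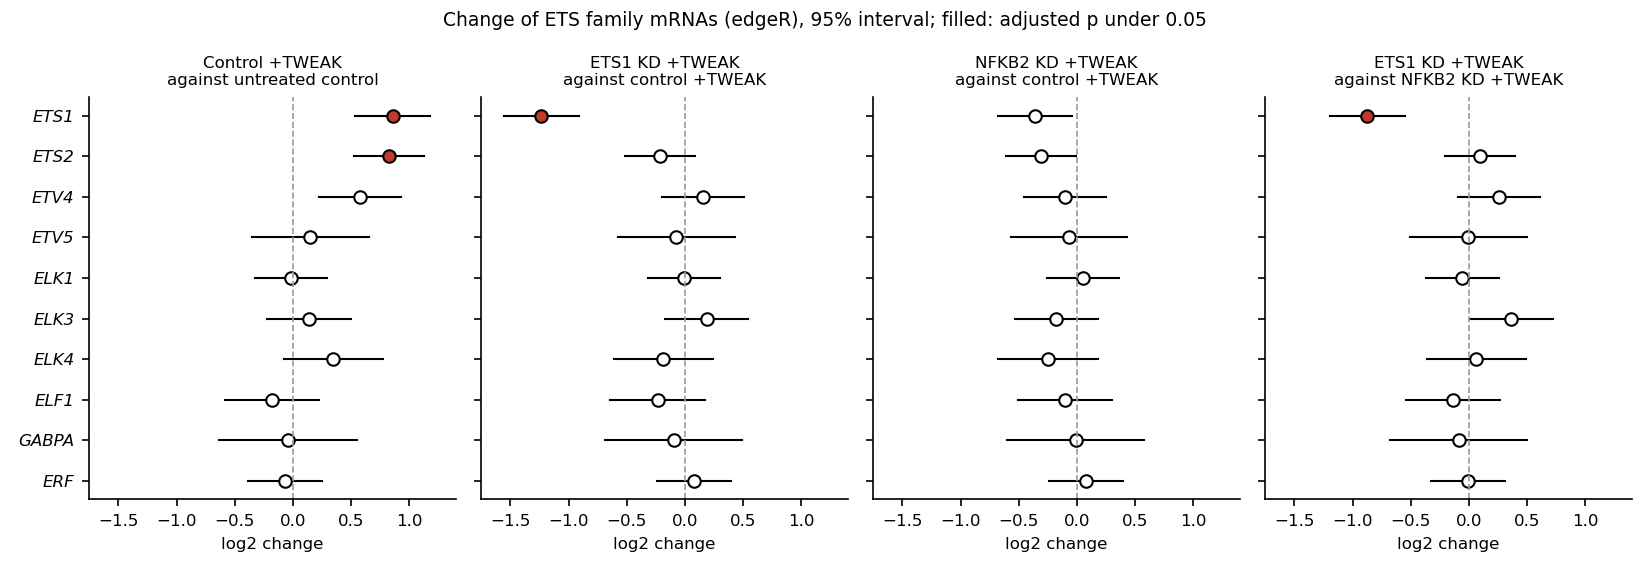
Log2 change of each member in 4 comparisons (x axis), with the 95% interval as a line; filled points had an edgeR adjusted p under 0.05. Only *ETS1* (0.86, −1.23 and −0.87) and *ETS2* (0.82 with TWEAK) are filled, and under the ETS1 KD the intervals of the other 9 genes span 0. The comparisons share libraries.

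With *NFKB2* reduced, no member was called; edgeR called 5 of all genes there (0.0296%), DESeq2 called 36 genes and no member, and 2 of 10 members had an unadjusted p under 0.05, as did 660 of 16879 genes. *ETS1* was at 67.0, 48.8 and 65.4 CPM in *NFKB2* KD cells, below all 3 TWEAK-treated control libraries (71.9 to 87.6 CPM), with a log2 change of −0.36 (SE 0.147, unadjusted p = 0.0296, adjusted p = 1). *ETS2* was at 39.7, 31.1 and 41.2 CPM, also below all 3 control libraries (log2 change −0.31, SE 0.139, unadjusted p = 0.0432, adjusted p = 1). Such separation of ranges was seen in 6.87% of all genes. The other 8 members had log2 changes of −0.25 (*ELK4*) to 0.08 (*ERF*), and their ranges overlapped. Set directly against the *NFKB2* KD, the ETS1 KD had less *ETS1*, its own target (log2 change −0.87, SE 0.148, adjusted p = 0.0102). This was the 1 member called of 10, where 1.94% of all genes were called and 1.4% as lower. *ELK3* had the next largest difference, 0.36 (SE 0.165, adjusted p = 0.316), and the other 8 members lay between −0.14 (*ELF1*) and 0.26 (*ETV4*).

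By mean level *ETS1* was highest in TWEAK-treated control cells (77.5 ± 8.7 CPM, SD, n = 3), followed by *NFKB2* KD with TWEAK (60.4 ± 10.1), untreated control (42.8 ± 1.99) and ETS1 KD with TWEAK (33.0 ± 4.78). Neighbours in this order did not pass the test; the *NFKB2* KD against untreated cells gave a log2 change of 0.50 with an adjusted p of 0.227, and 0.53 with an adjusted p of 0.0342 after GC and length correction. No member was called against untreated cells there, where 0.604% of all genes were; after the correction *ETS1* was the 1 member, in a fit that called 1.45% of all genes. *ETS2* ran from 46.3 ± 3.86 CPM in TWEAK-treated control cells through 40.0 ± 5.02 in ETS1 KD and 37.3 ± 5.42 in *NFKB2* KD to 26.2 ± 2.31 in untreated cells. The ETS1 KD and *NFKB2* KD levels of *ETS2* differed by less than their spread (log2 change 0.10, adjusted p = 0.799).

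At the chromatin level, p52 peaks appeared at 3 members after TWEAK. A site here is a place where the peaks of both replicates share at least 1 base. In untreated cells 0 of 10 members had a p52 site within 15 kb of a start, as did 0.0652% of 16873 genes, and with TWEAK *ETS1*, *ETV4* and *ELF1* had one, 3 of 10 where 11.7% of genes did. The *ETS1* peak has its summit at chr11:128580088, in an intron 7470 bases into the gene from its main start. Its fold enrichment over input was 16.0 and 38.7 in the TWEAK replicates, and no peak was listed there in either untreated library. The *ETV4* peak lies in an intron, 669 and 663 bases inside the furthest *ETV4* start and over 32 kb upstream of the main one (fold 12.1 and 31.6). The *ELF1* peak lies 308 and 294 bases upstream of the furthest *ELF1* start, and nearer still, at 239 and 225 bases, to the start of *WBP4* on the other strand (fold 15.6 and 44.8).

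All 3 sites were found again in both sets of *ETS1* KD libraries. At *ETS1* the fold was 13.6 and 27.8 with guide 1 and 17.7 and 15.6 with guide 2. At *ETV4* it was 19.7 and 31.8 with guide 1 and 22.3 and 20.7 with guide 2. At *ELF1* it was 18.2 and 31.1, and 29.3 and 30.3. Every KD value lay between the 2 TWEAK-treated control values except 3, the guide 1 replicate 1 and guide 2 replicate 2 values at *ETS1* and the guide 1 replicate 2 value at *ETV4*. Members with a p52 site were thus 3 of 10 in each KD set, where 5.1% and 11.9% of all genes had one. Of the 2941 p52 sites seen with TWEAK, 39.7% met a site of the guide 1 libraries and 73.4% one of the guide 2 libraries. The number of peaks per list differed, from 1387 and 3897 with guide 1 to 3579 and 11761 in TWEAK-treated control cells. Weaker p52 peaks at *ETS2* (fold 7.14, 36 bases from one of its starts), *ELK4* (7.09), *GABPA* (4.02, nearer the start of *ATP5PF*) and *ERF* (5.5, outside the gene) were listed in replicate 2 of the TWEAK group, the longest list, and not in replicate 1. *ELK4* also had one in guide 2 replicate 1 (5.06). In the TWEAK-treated control cells, a peak in either replicate was found at 7 members. This count takes in the longest list and is given without the share of all genes, so it does not set the members apart from other genes.

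**Figure D4:**
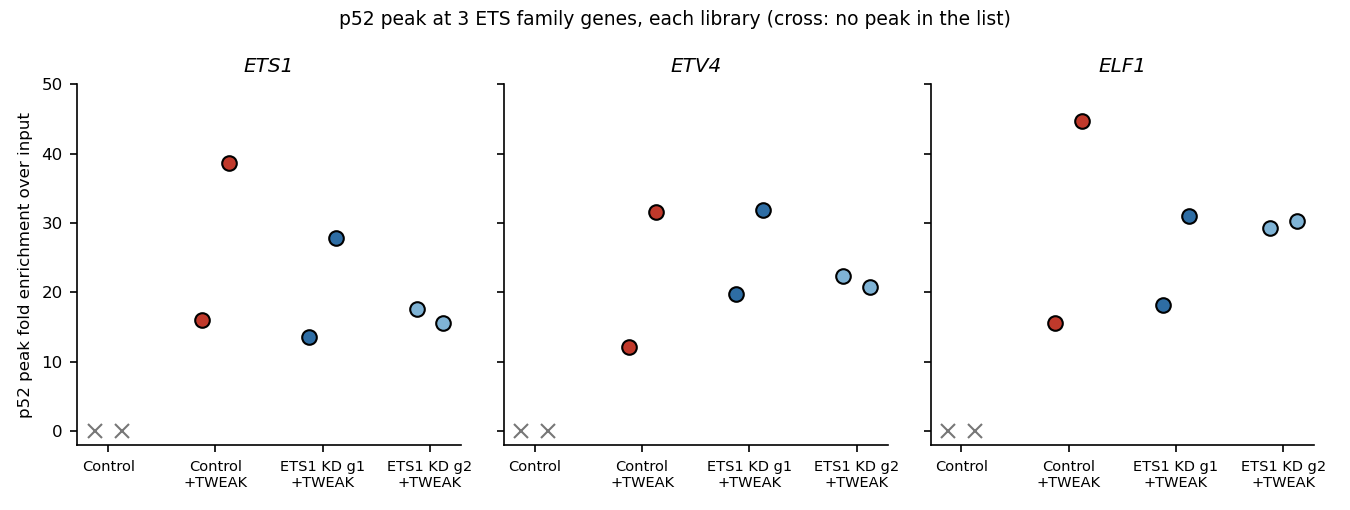
Fold enrichment over input (y axis) of the p52 peak within 60 bases of the TWEAK replicate 1 summit at *ETS1*, *ETV4* and *ELF1*, for the 2 libraries of each of 4 conditions; crosses at 0 mark libraries with no peak listed there. Peaks are absent in untreated cells and present in all 6 TWEAK-treated libraries, and values with and without the *ETS1* KD overlap.

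ETS1 itself had 1 site among the 10 members, at *ETV4*, and only in untreated cells. The ETS1 peaks lay within 12 bases of a secondary *ETV4* start, 391 and 415 bases inside the main one, with fold 6.2 and 4.79. Of all genes 8.34% had an ETS1 site in untreated cells and 11.4% with TWEAK, when none of the members did. With TWEAK a peak was listed in replicate 1 alone, 96 bases from another *ETV4* start (fold 4.51). These are weak peaks, at rank 1342 of 4372 and 1227 of 2066 by q value, and with peaks of −log10 q of at least 5 the count was 0. No ETS1 peak was listed at *ETS1* or *ETS2* in any of the 4 libraries.

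RNA Pol II sites were found near 9 of 10 members in untreated cells, where 57.7% of all genes had one, and near the same 9 with TWEAK (68.2%); *ETV4* was the member without. With the *ETS1* KD the count was 8 (60.3%) and with the *NFKB2* KD 7 (53.1%). The lower counts depend on the rule that peaks of both replicates share a base. Single libraries gave 10 members with the *ETS1* KD, 9 to 10 in TWEAK-treated control cells and 8 to 9 with the *NFKB2* KD. These single-library counts are given without the share of all genes and do not set the members apart from other genes. *ETV4* (fold 3.21 and 4.1) and *GABPA* (4.97 and 4.02) had promoter peaks in both *ETS1* KD libraries but no shared site. The strongest promoter peak of *ETS1* was not at the main start but within 16 bases of internal start sites about 65 kb further along the gene, which begin shorter transcripts. Its fold enrichment was 14.8 and 22.6 in untreated cells, 36.1 and 25.3 with TWEAK, 21.3 and 22.4 with the *ETS1* KD and 20.3 and 7.1 with the *NFKB2* KD. At *ETS2* the values in the same order were 19.8 and 29.6, 83.0 and 34.4, 31.6 and 27.1, and 31.1 and 12.5. Both TWEAK libraries were above both untreated ones at *ETS1*, *ETS2* and *ELF1* and below them at *ELK1*, of 8 members with a peak in all 4 libraries. Among 7286 genes with such peaks, 16.8% were higher in both TWEAK libraries and 3.34% lower, and the median ratio of TWEAK to untreated enrichment was 1.16. These values were not tested and are descriptions; an exact permutation test of 2 libraries against 2 cannot reach 0.05.

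Under the *ETS1* KD, 7 of 8 members (*ETS1*, *ETS2*, *ELK1*, *ETV5*, *ELF1*, *GABPA* and *ERF*) had lower promoter enrichment in both libraries than in both TWEAK-treated control libraries. This was so for 55.4% of 7817 genes, with a median ratio of 0.704 over all of them. *ETV5* had fold 49.6 and 32.5 in TWEAK-treated control cells and 14.4 and 18.3 in the KD, while its mRNA had a log2 change of −0.07 that did not pass the test. Under the *NFKB2* KD, *ETS1*, *ETS2*, *ELK4*, *ETV5* and *ELF1* were lower in both libraries, 5 of 7 members where 46.9% of 6893 genes were, with a median ratio of 0.691. The second *NFKB2* KD list was also short, with 11175 peaks against 30310 in the other replicate. The share of these drops that belongs to the library rather than the gene was not tested.

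**Figure D5:**
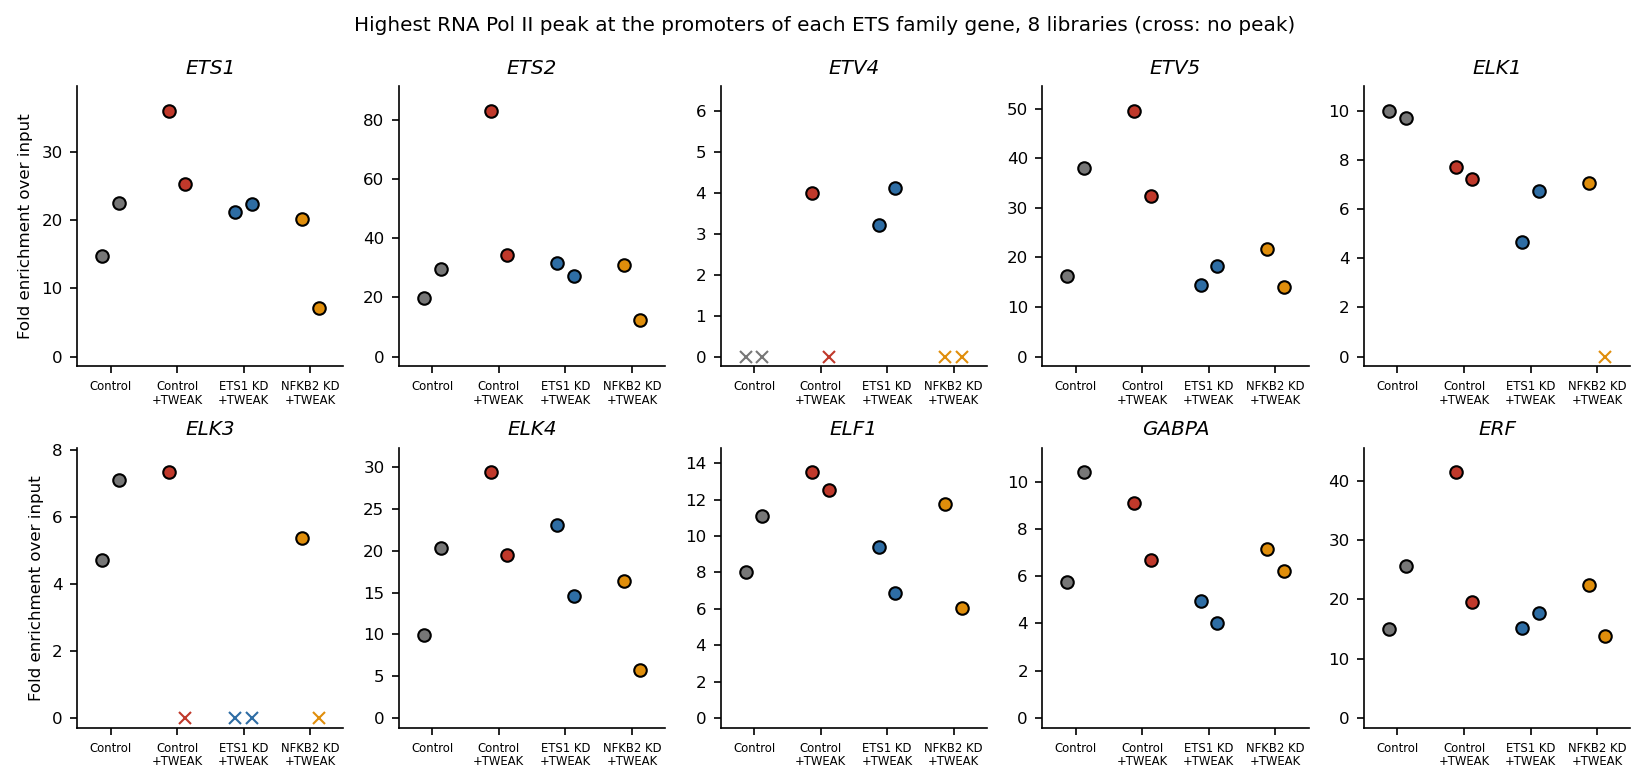
Fold enrichment over input (y axis, one scale per gene) of the highest RNA Pol II peak at the promoters of each member in 8 libraries, 2 per condition; crosses at 0 mark libraries with no promoter peak. *ETS2* reaches 83.0 in a TWEAK library, *ETV4* has no value above 4.1, and *ELK3* has no promoter peak in 4 of the 8 libraries (both *ETS1* KD libraries, replicate 2 of the TWEAK group and replicate 2 of the *NFKB2* KD).

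The genes most like *ETS1* over the 12 libraries were not other ETS factors. By Pearson r of log2 CPM they were *IL24*, a cytokine of the IL-10 family (0.955), *NFKBIZ*, a nuclear IκB protein (0.953), *TTC29* (0.953), *STXBP5-AS1* (0.946) and *WARS1*, a tRNA synthetase (0.944). *ETS2* had an r of 0.50 with *ETS1*, and 1027 genes had a higher one; the other members lay between −0.11 and 0.43. These are descriptions over 12 libraries that fall into 4 groups. In the 3 libraries of the *ETS1* KD, *ETS1* itself was targeted. A gene that rose with TWEAK but did not fall with this KD therefore gets a lower r.

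Genes that work with or under ETS factors were read from lists, tested with edgeR. Of 13 partners and regulators of ETS proteins, among them *SRF*, *GABPB1*, *RUNX1* and *EP300*, 0 passed the test with TWEAK and 0 with the *ETS1* KD; at an unadjusted p under 0.05 there were 0 and 1. The list's median log2 change was 0.13 with TWEAK and −0.05 with the KD, beside 0.02 and 0.01 over all genes. The count was 0 also with the *NFKB2* KD for this and the 4 lists below, where 2 genes in all, from the ETS1 target list, had an unadjusted p under 0.05. Of 14 genes commonly induced by ERK signalling, 1 rose with TWEAK, *CCND1*, the cyclin of early cell-cycle entry (log2 change 0.42, SE 0.0926, adjusted p = 0.0277), and 0 were called with the *ETS1* KD, with 1 at an unadjusted p under 0.05 and list medians of 0.17 with TWEAK and 0.03 with the KD. Of 10 targets of SRF and the ternary complex factors, 2 rose with TWEAK, *JUNB* (0.66, adjusted p = 0.0484) and *IER2* (0.44, adjusted p = 0.0418), and 0 were called with the KD, with 3 at an unadjusted p under 0.05 and list medians of 0.41 and −0.13 in the same order. After GC and length correction these counts with TWEAK were 4 higher and 1 lower of 14, and 3 higher of 10, where the corrected fit called 6.06% of all genes. At an unadjusted p under 0.05 without the correction, 6 of the 14 and 3 of the 10 passed with TWEAK, as did 2476 of 16879 genes. With the KD 2022 of 16879 genes did. At the adjusted threshold without the correction, 3.08% of all genes were called with TWEAK and 1.39% with the KD.

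Among 7 genes often named as ETS1 targets, 2 were called as higher and 1 as lower with TWEAK and 1 as lower with the *ETS1* KD. Of all genes tested, 3.08% were called with TWEAK (1.55% as higher) and 1.39% with the KD (1.13% as lower). The list medians were 0.26 and 0.27, beside 0.02 and 0.01 over all genes. After GC and length correction 1 was also called as higher with the KD, in a fit that called 507 of 16879 genes, 146 of them as higher. *MMP1*, an interstitial collagenase, was called in both. It was at 4.8, 5.9 and 5.06 CPM untreated, 15.1, 12.6 and 16.3 CPM with TWEAK and 4.96, 6.84 and 6.95 CPM in the *ETS1* KD. TWEAK-treated control libraries stood above all 6 others in both comparisons (log2 change 1.48, SE 0.180, adjusted p = 0.00069 with TWEAK; −1.23, SE 0.177, adjusted p = 0.00364 with the KD). *MMP9*, a gelatinase, was also called with TWEAK, with 0 counts in every untreated library and 18, 51 and 118 counts in treated ones, and had 63, 63 and 84 counts in the *ETS1* KD. *ANGPT2*, a Tie2 ligand, was called as lower with TWEAK, from 19 to 23 counts down to 4 to 6, and had 4, 6 and 5 counts in the *ETS1* KD. The rest of the list had higher mean levels in the *ETS1* KD than in TWEAK-treated control cells. *ITGB3* was at 156 against 108 CPM, *MMP3* at 29.9 against 18.6, *MET* at 456 against 377 and *PLAU* at 328 against 265. None of these was called with the KD without the correction. Of the 5 mitochondrial genes read as GABP targets, 0 were called in either comparison and 0 had an unadjusted p under 0.05.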

How the data were processed

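RNA-seq (12 libraries) and ChIP-seq of p52, ETS1 and RNA Pol II (20 libraries) of U-87 MG cells were analysed. The deposited gene counts had been made by the authors with Trimmomatic, STAR (hg38) and featureCounts; versions, annotation release and strand setting are not given in the sources used here, so antisense and overlapping genes cannot be separated. The peak lists, with a fold enrichment (ratio) and −log10 p and q per peak, were deposited by the authors per library from Bowtie2 and MACS2 with input subtraction and blacklist removal. Input libraries were not analysed here. The count labels and the study's methods name different library kits.

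Libraries held 28384201 to 40192606 counts. Counts were tested with edgeR 4.0.16 (R 4.3.3): filterByExpr, TMM, 1 quasi-likelihood model over 4 groups, Benjamini-Hochberg over 16879 genes, called at an adjusted p under 0.05. Levels are TMM-scaled counts (CPM), or the same per kilobase of GENCODE exon union, of which 62625 IDs matched. Alternatives were DESeq2 1.42.0, RLE scaling, no filter, 2-group fits, a replicate block, the study's thresholds (p 0.05, fold 1.5), a lowess offset over GC content and length (span 0.3) and leaving out each library. The fit was tested on simulated data. Peaks were compared by replicate overlap of 1 base within 15 kb of GENCODE starts; alternatives were 5 kb, −log10 q of 5, either replicate and a larger replicate overlap. Promoter peaks lay from 1000 bases before to 100 after a start. Replicates of the RNA-seq are described as biological; none agreed within sampling noise, and p-values measure the spread between them. Members and gene lists were chosen with earlier results of these data known. All members were named; in each other list up to 4 called genes with the largest change were.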

Additional observations from a re-analysis of the deposited data

How the results depend on the processing

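The calls of *ETS1* and *ETS2* with TWEAK, of *ETS1* alone with the *ETS1* KD and in the comparison of the 2 KDs, and of no member with the *NFKB2* KD were the same under every alternative run, except that *ETV4* joined the first under 5 of them. Its log2 change and adjusted p were 0.57 and 0.0289 with DESeq2, 0.57 and 0.0498 with the replicate block, 0.58 and 0.0126 with GC correction, 0.58 and 0.00447 with both, and 0.72 and 0.0319 without replicate 1 of the TWEAK group. *ELK1* under the *ETS1* KD moved to 0.0063 without the filter and 0.0015 with the block. Leaving out 1 library gave −0.114 to 0.0993 for *ELK1*, −0.288 to 0.0665 for *ETV5*, −0.321 to 0.0889 for *GABPA* and −0.0341 to 0.147 for *ERF* under the *ETS1* KD, and −0.0282 to 0.184 for *ERF* under the *NFKB2* KD. The cause was not tested.

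Counts of all genes called moved more. In the order TWEAK, *ETS1* KD, *NFKB2* KD and KD against KD they were 520, 234, 5 and 327 as reported, 940, 534, 36 and 808 with DESeq2, 859, 469, 87 and 781 without the filter, 1197, 957, 379 and 1244 by the study's thresholds, 1023, 507, 9 and 809 with GC correction and 1488, 709, 18 and 1307 with GC correction and replicate block. With only the 2 groups compared, the last pair was 2 and 104. Leaving out 1 library gave 171 to 405, 102 to 148, 2 to 4 and 76 to 561. Replicate numbers may pair the libraries in part. Of 18 same-numbered pairs, deviations correlated above 0.1 in 9, from −0.30 to 0.49 with a median of 0.16. Of 36 other pairs 12 did, from −0.56 to 0.49 with a median of −0.09. Pairing was not tested, and the main fit used none. The block changed no member's call but that of *ETV4*.

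Members with a p52 site after TWEAK were 7 with a peak in either replicate and 3 to 7 from 1 replicate. Members with an ETS1 site in untreated cells were 3 from either replicate, 0 at −log10 q of 5 and 2 from each single replicate, and with TWEAK 1 from either and 0 to 1 from single ones. These alternative counts are given without the share of all genes under the same setting. They show how far the counts move with the rule, and do not set the members apart from other genes. With 3 libraries a group, intervals of the log2 change of a member were wide, and peak lists of unequal length limit what an absent peak shows.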

Other observations

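Of 18 further ETS family genes, 9 passed the filter on low counts. *ETV1*, of the PEA3 group, was at 144 to 188 CPM in untreated and 127 to 149 CPM in TWEAK-treated control cells (log2 change −0.32, SE 0.147, adjusted p = 0.339). *ELF4* had 42.5, 51.0 and 71.7 CPM untreated and 61.6, 95.8 and 115 CPM with TWEAK, which overlap (log2 change 0.72, SE 0.241, adjusted p = 0.15). *ETV3* and *ETV6*, both repressors, and *ELF2* had log2 changes of 0.03 to 0.21 with TWEAK that did not pass the test. Of the 9, 0 were called by edgeR with TWEAK and 0 with the *ETS1* KD, and 2 had an unadjusted p under 0.05 in each comparison. With the KD those 2 were *ERG* (log2 change −0.98, adjusted p = 0.328) and *EHF* (−1.001, adjusted p = 0.324), which had 5 to 23 and 5 to 18 counts in the 12 libraries. After GC and length correction 1 of the 9 was higher and 1 lower with TWEAK, in a fit that called 6.06% of all genes, and 0 were called with the KD. In the ETS1 KD against untreated cells 1 of the 9 was called as lower, where 13.8% of all genes were called. After the correction 1 was higher and 2 lower there, where 21% of all genes were called. *FLI1*, an endothelial and haematopoietic ETS factor, had 0 or 1 counts in every library, and *SPI1*, the myeloid factor PU.1, 0 to 2. *FEV* and *SPIC* had 0 counts in all 12 libraries.

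A second RNA Pol II peak lay in an intron of *ETS1*, 1947 and 1929 bases before an internal start, with fold 16.5 and 13.2 in TWEAK-treated control cells, 10.8 and 12.9 untreated, and 13.0 and 11.8 with the *ETS1* KD; with the *NFKB2* KD it was 16.1 in replicate 1, and no peak was listed in replicate 2. The antisense gene *ETS1-AS1* had 0 or 1 counts in every library, and the pseudogenes *ELK1P1* and *ETS2P1* had 0 in all of them.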
